A study of Homo sapiens with 8 samples.

Results

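The collagen genes were taken as the protein-coding genes whose symbol is COL, a number, the letter A and a number, which gave 44 of the 60617 gene identifiers in the count table. By the type of collagen that each gene encodes, 11 were fibrillar, 6 encoded the type IV chains of basement membranes and 27 belonged to other types. The samples were HEK293T cells, an established human embryonic kidney line, and poly(A) RNA was sequenced from 8 libraries, 2 in each of 4 groups. Of these groups, 3 were knockout derivatives of that line, named sgKDM5C, sgKDM6A and sgKMT2B after the targeted gene, and WT cells were the comparison for all 3. KMT2B adds methyl groups to histone H3 at lysine 4, KDM5C removes them there, and KDM6A removes them at lysine 27. All groups were grown in the same medium and received no other treatment named in the labels. The labels do not say whether a knockout line was 1 clone or a pool, where the guide cut, or whether replicates were separate cultures. P-values therefore measure only the spread between these libraries, which may be technical, and all 3 comparisons with WT share the same 2 WT libraries.

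Collagens are proteins of 3 chains wound into a triple helix. Some types are built from 1 kind of chain and others need different chains from different genes, so the level of a type can be limited by the scarcest chain. Fibrillar collagens assemble outside the cell into the fibrils that give tissues tensile strength, type IV collagen forms the sheet-like network of basement membranes, including that of the kidney glomerulus, and other types coat fibrils, form beaded filaments or span the cell membrane. Before secretion the chains are hydroxylated, glycosylated and folded in the endoplasmic reticulum. After secretion their ends are trimmed by proteases, and lysyl oxidases cross-link them.

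Library totals ranged from 15868353 counts in WT replicate 2 to 27591724 counts in sgKDM6A replicate 2, so 3 counts in a library were worth 0.107 to 0.195 CPM, counts scaled to library size with TMM factors. KDM6A had 10.4 and 11.5 CPM in sgKDM6A cells, against 54.2 and 61.2 CPM in WT cells. KMT2B had 63.0 and 75.5 CPM in sgKMT2B cells, against 145.9 and 137.0 CPM in WT cells. KDM5C had 330.8 and 311.9 CPM in sgKDM5C cells, against 440.4 and 470.9 CPM in WT cells, a 1.42-fold lower mRNA level that leaves most of the transcript in place. KDM5C was also called 1.19-fold lower in sgKDM6A than in WT cells (edgeR adjusted p = 0.0359), and sgKDM5C cells were 1.19-fold below sgKDM6A and 1.22-fold below sgKMT2B cells, so its level sets the sgKDM5C libraries only a little apart from the other knockouts. The counts cover whole genes, so they do not show whether the transcripts were edited. Of 12 markers of HEK293T cells and of embryonic kidney or neural cells, 11 passed the filter on low counts, and their summed level was 753.9 to 938.5 CPM over the libraries, with 1 higher and 3 lower in sgKDM5C cells, 1 higher and 6 lower in sgKDM6A cells and 2 higher and 7 lower in sgKMT2B cells. VIM made up most of that sum, at 399.9 to 646.6 CPM. KRT8, an epithelial keratin, was 11.2-fold lower in sgKDM6A cells (edgeR adjusted p = 1.09e-09) and 4.23-fold higher in sgKMT2B cells (edgeR adjusted p = 1.83e-08). NEFM, a neurofilament gene, had 0 CPM in all sgKDM5C and sgKDM6A libraries and 0 and 0.0788 CPM in sgKMT2B cells, against 5.58 and 5.72 CPM in WT cells. Among 11 fibroblast and stromal markers, DPT and FAP had 0 counts in every library, and THY1 was close to 0. The blood markers summed to 0.286 to 0.763 CPM, and the endothelial markers to 0.51 to 1.89 CPM. Among the endothelial markers, VWF had 62 counts in sgKMT2B cells, against 2 in WT cells (edgeR adjusted p = 0.00241), and KDR had 16 counts in sgKMT2B cells, against 42 in WT cells (edgeR adjusted p = 0.0397). The part of these markers in the collagen results was not tested. In these bulk libraries, fewer cells with a transcript and less of it in each cell cannot be told apart.

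HEK293T cells transcribed only a part of the collagen family at more than trace levels. The filter on low counts kept 31 of the 44 genes for testing, made up of 7 of the 11 fibrillar genes, all 6 type IV genes and 18 of the 27 others. Some genes passed through 1 group alone. COL2A1 exceeded the filter's minimum of 0.396 CPM in both libraries only in WT, COL8A2 only in sgKMT2B and COL15A1 only in sgKDM6A, while COL6A3 did so in sgKDM5C and sgKMT2B. Passing through 1 group can favour genes that are high in it, so counts over the tested genes are given as a description.

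The most abundant collagen transcripts in WT cells were COL6A1 with 27.95% of the summed collagen CPM, COL6A2 with 15.47%, COL4A2 with 15.43% and COL18A1 with 12.41%. Per length of exon (FPKM, the CPM divided by exon length in kilobases) the order was similar. COL6A1 stood at 69.7 FPKM in WT cells, COL6A2 at 38.2 FPKM, COL18A1 at 19.4 FPKM, COL26A1 at 10.9 FPKM and COL4A2 at 10.7 FPKM. The classical fibril-forming chains were far lower per length, with 5.34 FPKM for COL1A1, 4.15 FPKM for COL5A1 and 0.221 FPKM for COL3A1 in WT cells.

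Summed over all 44 genes, collagen transcripts amounted to 1200.0 and 1302.0 CPM in sgKDM5C cells, 750.7 and 815.7 CPM in sgKDM6A cells and 1145.0 and 1245.0 CPM in sgKMT2B cells, against 1339.0 and 1325.0 CPM in WT cells. Both sgKDM6A libraries lay below every other library. The fibrillar sum was 70.5 and 69.6 CPM in sgKDM6A cells and 190.6 and 211.1 CPM in sgKMT2B cells, against 141.1 and 139.3 CPM in WT cells. The type IV sum was lowest in sgKMT2B cells, with 176.4 and 191.0 CPM there, against 317.0 and 293.7 CPM in WT cells. The sum of the other types was 433.2 and 463.5 CPM in sgKDM6A cells, against 880.8 and 891.7 CPM in WT cells, and most of that gap came from COL6A1, COL6A2 and COL18A1. These sums are dominated by a few abundant genes and were not tested.

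**Figure D1:**
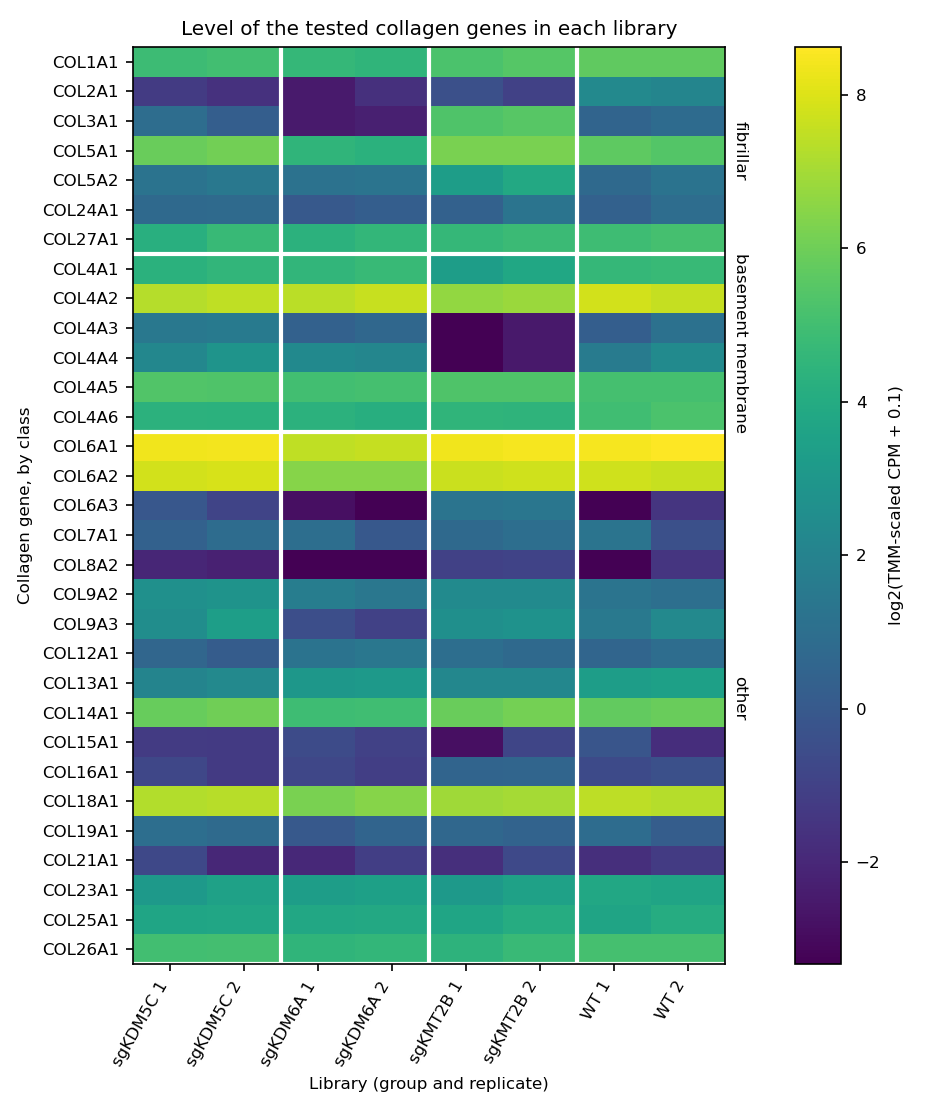
Level of each of the 31 tested collagen genes (rows, by class) in each of the 8 libraries (columns), as log2 of TMM-scaled CPM plus 0.1. COL3A1 is high in both sgKMT2B libraries, COL4A3 and COL4A4 are near 0 there, and COL6A1 and COL6A2 are lower in both sgKDM6A libraries than in the others.

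A gene was called changed at an adjusted p under 0.05 in edgeR's quasi-likelihood test, with the Benjamini-Hochberg adjustment over all 17527 genes tested. In sgKDM5C cells 7 of the 31 tested collagen genes were called, 3 higher and 4 lower than in WT, where 22.6% of all genes tested were called, 11.1% higher and 11.5% lower. In sgKDM6A cells 12 were called, 0 higher and 12 lower, where 27.2% of all genes were called, 12.6% higher and 14.6% lower. An unadjusted p under 0.05 gave 0 collagen genes higher in sgKDM6A cells, and so did DESeq2. In sgKMT2B cells 15 were called, 5 higher and 10 lower, where 28.1% of all genes were called, 13.7% higher and 14.5% lower. The share in sgKDM5C cells, 22.58%, was close to that of all genes. The median log2 change of the tested collagen genes was -0.06 in sgKDM5C cells, -0.50 in sgKDM6A cells and 0.01 in sgKMT2B cells, against 0.02, 0.01 and 0.00 over all genes in the same 3 comparisons. Over the 3 comparisons with WT, 20 collagen genes were called at least once, where 48.5% of all genes tested were.

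**Figure D2:**
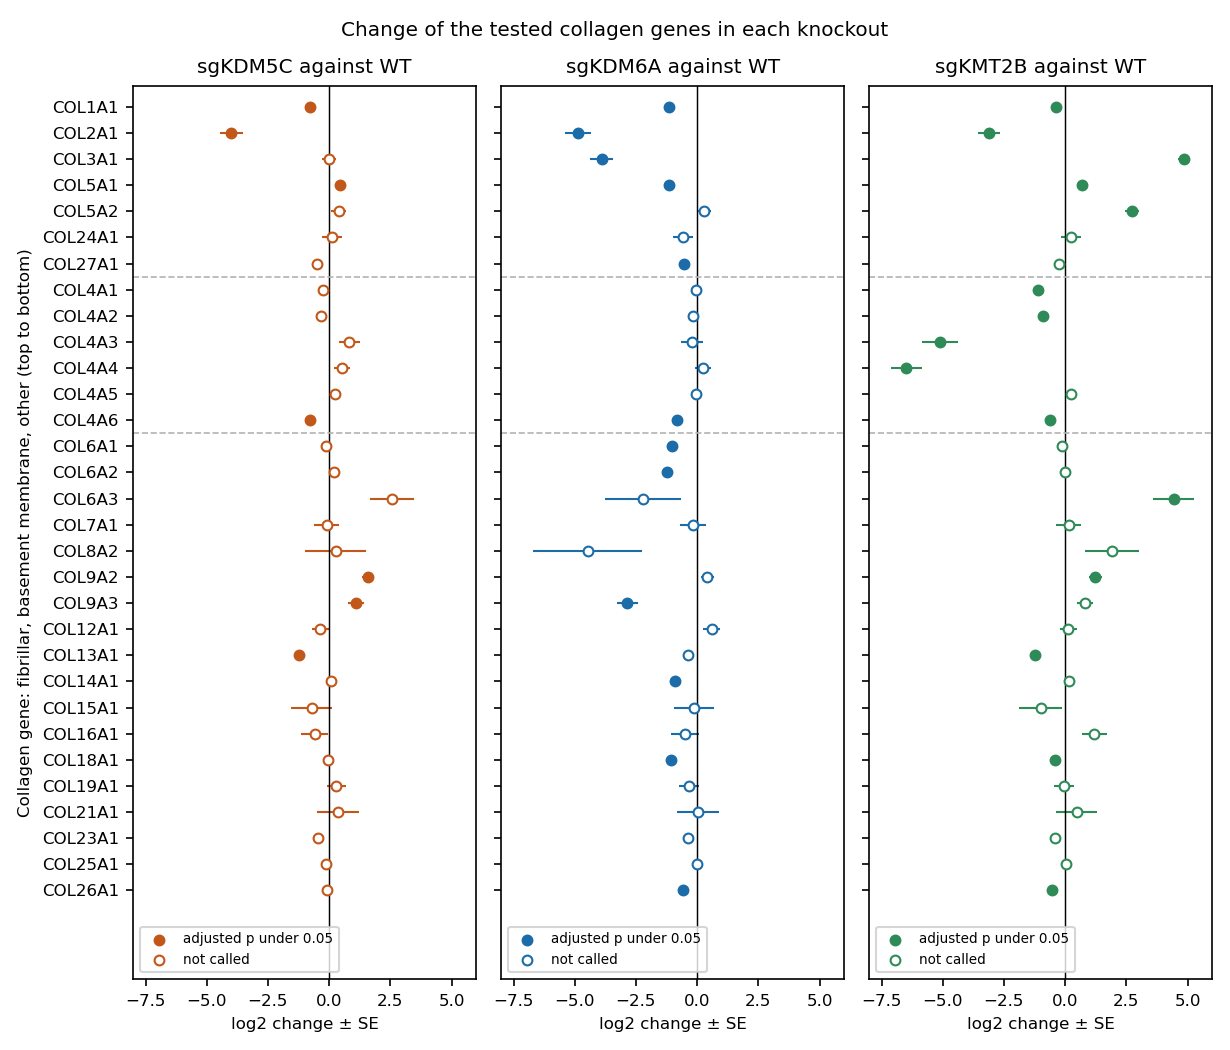
Fitted log2 change of each tested collagen gene in each knockout against WT (x axis, points with bars of 1 SE), with genes called at an adjusted p under 0.05 filled. No filled point lies right of 0 for sgKDM6A, while sgKMT2B has filled points as far as 4.87 for COL3A1 on the right and -6.49 for COL4A4 on the left; the values of COL4A3 and COL4A4 there rest on 2 counts each.

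Among the fibrillar genes, COL3A1 rose in sgKMT2B cells and fell in sgKDM6A cells. It encodes the chain of type III collagen, which is built from that chain alone and accompanies type I collagen in blood vessels, gut and skin. It had 40.3 and 46.1 CPM in sgKMT2B cells, against 1.32 and 1.69 CPM in WT cells. It had 0.0793 and 0.107 CPM in sgKDM6A cells, or 5 counts over both libraries, and 1.86 and 1.10 CPM in sgKDM5C cells. The sgKMT2B libraries were far above all others, the sgKDM6A libraries were below all others, and the sgKDM5C libraries overlapped the WT libraries. Against WT, the log2 change was 4.87 ± 0.24 in sgKMT2B cells (SE, edgeR adjusted p = 2.72e-08), -3.90 ± 0.48 in sgKDM6A cells (edgeR adjusted p = 8.12e-05) and 0.00 ± 0.28 in sgKDM5C cells (edgeR adjusted p = 0.995). Per length, COL3A1 reached 6.35 FPKM in sgKMT2B cells, against 0.221 FPKM in WT cells.

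COL5A2 is the neighbour of COL3A1 on chromosome 2 (COL3A1 at 188974320 to 189012746 on the plus strand, COL5A2 at 189031896 to 189225312 on the minus strand, GRCh38) and encodes the second chain of type V collagen, which starts and thins the fibrils of type I collagen. It had 9.88 and 14.7 CPM in sgKMT2B cells, against 1.57 and 2.21 CPM in WT cells. In sgKDM6A cells it had 2.18 and 2.32 CPM, and in sgKDM5C cells 2.22 and 2.65 CPM. The sgKMT2B libraries were far above all others, and the sgKDM5C libraries were also above both WT libraries, by little. The log2 change in sgKMT2B cells was 2.73 ± 0.28 (edgeR adjusted p = 1.86e-05), and the changes in sgKDM6A (0.28 ± 0.30, edgeR adjusted p = 0.520) and sgKDM5C cells (0.39 ± 0.30, edgeR adjusted p = 0.371) were not called. So COL3A1 fell in sgKDM6A cells while the level of its neighbour there was 2.25 ± 0.10 CPM, against 1.89 ± 0.45 CPM in WT cells (SD, n = 2 each).

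COL5A1, on chromosome 9, encodes the first chain of type V collagen. Its level was 22.3 and 19.7 CPM in sgKDM6A cells, against 50.4 and 42.6 CPM in WT cells. It was 75.1 and 75.1 CPM in sgKMT2B cells and 58.7 and 68.0 CPM in sgKDM5C cells. The groups did not overlap, with sgKDM6A lowest and sgKMT2B highest. Its log2 change against WT was -1.15 ± 0.13 in sgKDM6A cells (edgeR adjusted p = 4.41e-05) and 0.69 ± 0.12 in sgKMT2B cells (edgeR adjusted p = 0.00117). The change in sgKDM5C cells, 0.44 ± 0.12 (edgeR adjusted p = 0.0202), lost its call without WT replicate 2 (0.129) or without sgKDM5C replicate 2 (0.170). Per length, the 2 chains of type V collagen stood at 6.71 FPKM for COL5A1 and 1.65 FPKM for COL5A2 in sgKMT2B cells, and at 4.15 and 0.254 FPKM in WT cells. The third chain, COL5A3, was not tested, with 4 counts in sgKDM5C, 4 in sgKDM6A and 9 in sgKMT2B cells, against 0 in WT cells.

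COL1A1 encodes the major chain of type I collagen, the main collagen of bone, skin and tendon. It had 28.9 and 32.0 CPM in sgKDM5C cells, 24.4 and 22.3 CPM in sgKDM6A cells and 37.9 and 44.0 CPM in sgKMT2B cells, against 52.0 and 52.8 CPM in WT cells. Each knockout library lay below both WT libraries. The log2 change was -0.78 ± 0.12 in sgKDM5C cells (edgeR adjusted p = 0.000889) and -1.17 ± 0.13 in sgKDM6A cells (edgeR adjusted p = 3.33e-05). The smaller change in sgKMT2B cells, -0.36 ± 0.12 (edgeR adjusted p = 0.0450), passed the threshold narrowly. It no longer did when any 1 of the 8 libraries was left out, with adjusted p-values from 0.0561 without sgKDM5C replicate 2 to 0.338 without sgKMT2B replicate 1, when only the sgKMT2B and WT libraries were fitted (0.0575) or without the filter on low counts (0.0819). The partner chain of type I collagen, COL1A2, was nearly absent, with 3 counts in sgKDM5C, 0 in sgKDM6A and 0 in sgKMT2B cells, against 4 in WT cells. In WT cells COL1A1 stood at 5.34 FPKM and COL1A2 at 0.0117 FPKM.

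COL2A1 encodes the chain of type II collagen, the main collagen of cartilage. It had 0.328 and 0.227 CPM in sgKDM5C cells, 0.0793 and 0.214 CPM in sgKDM6A cells and 0.643 and 0.394 CPM in sgKMT2B cells, against 4.75 and 4.22 CPM in WT cells. All 6 knockout libraries were well below both WT libraries, and the total over a group was 15, 8 and 26 counts in the knockouts, against 180 counts in WT. The gene exceeded the filter's minimum in both libraries only in WT, which can favour a gene that is high there. All comparisons with WT also share the same WT libraries. The log2 changes were -3.99 ± 0.47 in sgKDM5C (edgeR adjusted p = 0.000147), -4.86 ± 0.52 in sgKDM6A (edgeR adjusted p = 3.05e-05) and -3.11 ± 0.44 in sgKMT2B cells (edgeR adjusted p = 0.000218). With only 8 counts the value in sgKDM6A cells was loose, at -5.73 without sgKDM6A replicate 2 and -5.50 with all libraries thinned to the smallest total. Beside this, 6 cartilage markers summed to 17.3 and 19.3 CPM in sgKDM5C, 13.0 and 18.6 CPM in sgKDM6A and 25.2 and 30.4 CPM in sgKMT2B cells, against 33.3 and 29.6 CPM in WT cells. In that list, which includes SOX9, 2 fell in sgKDM5C cells, 3 fell in sgKDM6A cells and 0 were called in sgKMT2B cells, and their part in the COL2A1 result was not tested.

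The remaining tested fibrillar genes, COL27A1 and COL24A1, encode minor fibrillar chains. COL27A1 had 20.5 and 23.8 CPM in sgKDM6A cells, against 29.9 and 33.7 CPM in WT cells, a log2 change of -0.52 ± 0.17 (edgeR adjusted p = 0.0398). This call was lost without WT replicate 2 (0.173), sgKDM6A replicate 1 (0.226), sgKDM6A replicate 2 (0.0607), sgKMT2B replicate 1 (0.0531) or sgKMT2B replicate 2 (0.0515). The gene was at 18.4 and 26.8 CPM in sgKDM5C cells, with an edgeR adjusted p of 0.0556, and was called there in DESeq2 (0.0338), without the filter (0.0166) and without sgKDM5C replicate 2 (0.0105). COL24A1 was between 0.912 and 2.33 CPM over the 8 libraries and was not called in any knockout. COL11A1 had 4 counts, all in sgKMT2B replicate 1, and COL11A2 had 0 counts in every library.

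The 6 type IV genes lie as 3 head-to-head pairs, in which the genes of a pair start close together on opposite strands. COL4A1 and COL4A2, on chromosome 13, encode the chains of the network found in nearly all basement membranes. COL4A3 and COL4A4, on chromosome 2, encode the chains that join the COL4A5 chain in the network of the mature glomerular basement membrane, and variants in these genes cause Alport syndrome. COL4A5 and COL4A6 share a pair on the X chromosome, and their chains form the network of, among others, the basement membranes of skin and smooth muscle.

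The stretches between the starts are shown for the pairs on chromosomes 2 and X, because both genes of the first pair moved together in 1 knockout while the genes of the second did not. The sequences are RefSeq's (GRCh38.p14, plus strand), and capitals mark each CG. The stretches of the COL4A4 and COL4A3 pair are chr2:227164237-227164395 and chr2:227164454-227164564, which lie outside the exons of the GENCODE annotation, and for the COL4A6 and COL4A5 pair the 250 bases next to COL4A5, chrX:108439588-108439837, are shown, with 8 of the 12 CG between those starts.
COL4A4-COL4A3, first stretch: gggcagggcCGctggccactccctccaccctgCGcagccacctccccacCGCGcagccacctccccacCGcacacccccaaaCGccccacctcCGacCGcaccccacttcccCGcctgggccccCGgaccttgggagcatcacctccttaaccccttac
COL4A4-COL4A3, second stretch: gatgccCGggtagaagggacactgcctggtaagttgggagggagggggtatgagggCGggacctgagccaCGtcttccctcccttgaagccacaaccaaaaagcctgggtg
COL4A6-COL4A5: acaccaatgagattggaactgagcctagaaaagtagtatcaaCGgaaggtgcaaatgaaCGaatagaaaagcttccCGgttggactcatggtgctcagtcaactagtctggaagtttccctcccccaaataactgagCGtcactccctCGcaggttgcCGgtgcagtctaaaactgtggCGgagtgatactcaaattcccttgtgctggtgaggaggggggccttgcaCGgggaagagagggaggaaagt

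Between the starts of COL4A4 and COL4A3 lie 418 bases with 32 CG, or 7.66 per 100 bases, and 70.1% of these bases are G or C. Between COL4A6 and COL4A5 lie 379 bases with 12 CG, or 3.17 per 100 bases, and 48.5% G or C. For COL4A6 the RefSeq start nearer COL4A5 was used. The 250 bases upstream of its other RefSeq start, at chrX:108438422, held 3 CG, 1 GGGCGG and 0 CCAAT. The 126 bases between COL4A1 and COL4A2 hold 20 CG, or 15.9 per 100 bases, at 80.2% G or C, and are not printed because nearly all of them are annotated as exon. The 3 intervals thus run from CG-dense to CG-poor in the order COL4A1 with COL4A2, COL4A3 with COL4A4, COL4A5 with COL4A6. In the 250 bases upstream of each start that bounds these intervals, COL4A1 and COL4A2 had 38 and 40 CG, COL4A3 and COL4A4 had 17 and 20, and COL4A5 and COL4A6 had 8 and 7, where the median over all 35116 promoter windows in the RefSeq table was 11. Windows with at least as many CG made up 3.28% for COL4A1, 39.0% for COL4A3 and 56.3% for COL4A5. On either strand, CCAAT occurred 3 times between COL4A6 and COL4A5, 1 time between COL4A1 and COL4A2 and 0 times between COL4A4 and COL4A3, GGGCGG 0, 1 and 2 times, and TATAAA in none. Of all windows, 32.0% hold CCAAT, 42.6% GGGCGG, 10.7% TATAAA and 93.9% at least 1 CG. A match describes the letters only, and no binding was measured.

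COL4A3 and COL4A4 were almost silent in sgKMT2B cells. COL4A4 had 0 and 0.0788 CPM in sgKMT2B cells, 2 counts in all, against 3.02 and 5.13 CPM, or 152 counts, in WT cells. COL4A3 had 0 and 0.0788 CPM in sgKMT2B cells, also 2 counts, against 1.07 and 2.08 CPM, or 58 counts, in WT cells. No library of another group came near these levels, since COL4A4 was between 4.43 and 7.11 CPM and COL4A3 between 1.19 and 2.80 CPM over the sgKDM5C and sgKDM6A libraries. The WT to sgKMT2B ratio of CPM was 96.5 for COL4A4 (95% interval 26.3 to 804) and 36.8 for COL4A3 (9.74 to 311), intervals that cover counting error only. Both genes were called lower (edgeR adjusted p = 1.25e-05 for COL4A4 and 0.000259 for COL4A3). With 2 counts a gene the size of the fitted change is loose, and leaving out either sgKMT2B library moved it. For COL4A4 the log2 change was -6.485 with all libraries, -5.58 without sgKMT2B replicate 1 and -9.62 without replicate 2. For COL4A3 it was -5.105, -4.19 and -8.24 in the same order. In sgKDM5C and sgKDM6A cells neither gene was called, with log2 changes of 0.52 ± 0.34 and 0.24 ± 0.34 for COL4A4 and 0.82 ± 0.43 and -0.21 ± 0.45 for COL4A3. COL4A3 overlaps MFF-DT on the opposite strand, which had 166 counts over the 8 libraries, and without a stated strand setting their reads cannot be told apart.

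COL4A1 and COL4A2 also fell in sgKMT2B cells, by far less. COL4A1 had 9.84 and 13.7 CPM in sgKMT2B cells, against 24.7 and 26.6 CPM in WT cells (log2 change -1.12 ± 0.17, edgeR adjusted p = 0.000356). COL4A2 had 103.8 and 114.9 CPM in sgKMT2B cells, against 222.8 and 188.2 CPM in WT cells (log2 change -0.91 ± 0.12, edgeR adjusted p = 0.000116). For both genes the sgKMT2B libraries were the lowest of all 8. In sgKDM6A cells neither was called, at 23.4 and 26.2 CPM for COL4A1 and 165.1 and 198.3 CPM for COL4A2. In sgKDM5C cells COL4A2 had 154.8 and 175.7 CPM, below both WT libraries but not called (edgeR adjusted p = 0.0686), and among the alternatives it was called without WT replicate 2 (0.0299) and without the filter (0.0233). Although their starts are close, COL4A2 stood at 10.7 FPKM and COL4A1 at 1.74 FPKM in WT cells, and at 5.67 and 0.798 FPKM in sgKMT2B cells. The genes overlap near their starts on opposite strands, so a part of their reads may be shared.

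On the X chromosome the paired genes parted. COL4A6 had 20.4 and 19.9 CPM in sgKDM5C, 20.3 and 18.1 CPM in sgKDM6A and 22.3 and 21.9 CPM in sgKMT2B cells, against 31.3 and 37.2 CPM in WT cells. All knockout libraries lay below both WT libraries, with log2 changes of -0.76 ± 0.14 in sgKDM5C (edgeR adjusted p = 0.00193), -0.83 ± 0.14 in sgKDM6A (edgeR adjusted p = 0.000764) and -0.63 ± 0.14 in sgKMT2B cells (edgeR adjusted p = 0.00424). COL4A5 had 41.0 and 40.5 CPM in sgKDM5C, 31.9 and 34.2 CPM in sgKDM6A and 40.4 and 40.4 CPM in sgKMT2B cells, against 34.1 and 34.5 CPM in WT cells. Its sgKDM5C and sgKMT2B libraries were above both WT libraries, without a call in any knockout (log2 changes 0.25 ± 0.11, -0.05 ± 0.11 and 0.24 ± 0.11 in sgKDM5C, sgKDM6A and sgKMT2B cells). Over the 6 type IV genes, 5 fell in sgKMT2B cells, 1 in sgKDM5C cells and 1 in sgKDM6A cells, and 0 rose in edgeR or DESeq2, with 1 higher at an unadjusted p under 0.05 in sgKDM5C cells and 0 in the other knockouts. Of all genes tested, 14.5%, 11.5% and 14.6% were called lower in the same 3 comparisons, so that 1 of 6 in sgKDM5C and sgKDM6A cells was near the share of all genes. The median log2 change of the type IV genes was -1.02 in sgKMT2B cells, 0.00 in sgKDM5C cells and -0.12 in sgKDM6A cells.

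**Figure D3:**
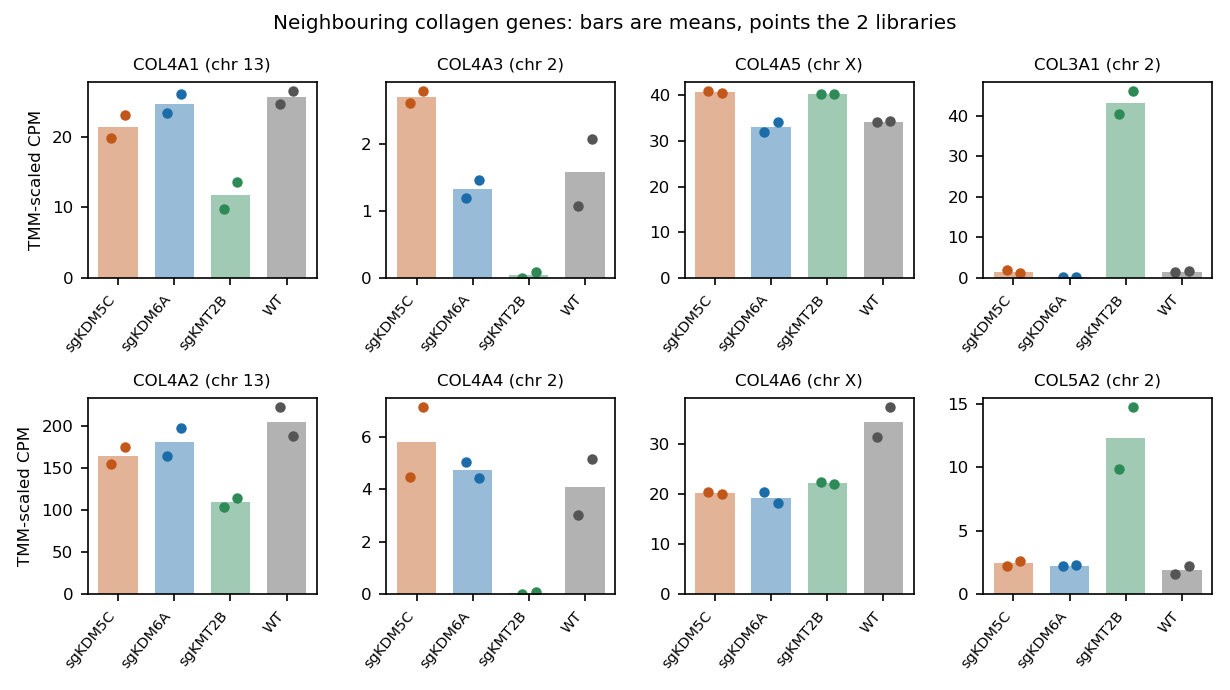
TMM-scaled CPM of 8 collagen genes that lie as 4 neighbouring pairs (columns), as means (bars) with both libraries of each group (points). COL4A3 and COL4A4 are near 0 in sgKMT2B, COL4A1 and COL4A2 are lowest there, COL4A6 but not COL4A5 is below WT in each knockout, and COL3A1 and COL5A2 are highest in sgKMT2B.

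Type VI collagen, which forms beaded filaments around cells, needs the chains of COL6A1 and COL6A2 and 1 more chain, most often that of COL6A3. COL6A1 had 177.6 and 192.4 CPM in sgKDM6A cells, against 350.7 and 393.8 CPM in WT cells (log2 change -1.01 ± 0.09, edgeR adjusted p = 8.69e-06). COL6A2 had 87.4 and 86.1 CPM in sgKDM6A cells, against 217.2 and 194.7 CPM in WT cells (log2 change -1.25 ± 0.09, edgeR adjusted p = 1.70e-06). For both genes the sgKDM6A libraries were the lowest of all 8. In the other knockouts neither was called, with COL6A1 at 332.6 and 346.0 CPM in sgKDM5C and 327.0 and 347.3 CPM in sgKMT2B cells, and COL6A2 at 225.2 and 240.9 CPM in sgKDM5C and 200.2 and 216.0 CPM in sgKMT2B cells.

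COL6A3 behaved otherwise. It had 2.33 and 2.44 CPM in sgKMT2B cells, or 120 counts, against 0 and 0.260 CPM, or 4 counts, in WT cells, a log2 change of 4.43 ± 0.82 (edgeR adjusted p = 0.00150). The WT level was near the floor, and the fitted change was 3.18 without WT replicate 1 and 8.96 without WT replicate 2, so its size is uncertain. In sgKDM5C cells the gene had 0.838 and 0.454 CPM, 35 counts in all, and was not called (log2 change 2.56 ± 0.91, edgeR adjusted p = 0.0573), though it was without WT replicate 2 (0.0142), in DESeq2 (0.0469) or without the filter (0.00558). It had 1 count in sgKDM6A cells. Per length, COL6A3 stood at 0.122 FPKM in sgKMT2B cells and 0.00662 FPKM in WT cells, while COL6A1 stood at 63.1 and 69.7 FPKM in the same groups. COL6A5 and COL6A6, which encode alternatives to the COL6A3 chain, had 36 and 32 counts over the 8 libraries and were not tested.

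The FACIT collagens sit on the surface of fibrils, and type IX, built from the chains of COL9A1, COL9A2 and COL9A3, is the one that decorates cartilage fibrils. COL9A3 had 5.64 and 10.2 CPM in sgKDM5C cells, 0.634 and 0.393 CPM in sgKDM6A cells and 6.11 and 6.78 CPM in sgKMT2B cells, against 2.73 and 4.81 CPM in WT cells. The sgKDM6A libraries were far below the rest, and both sgKDM5C and sgKMT2B libraries were above both WT libraries. The log2 change was -2.85 ± 0.42 in sgKDM6A cells (edgeR adjusted p = 0.000337). It was 1.10 ± 0.33 in sgKDM5C cells (edgeR adjusted p = 0.0273), a call lost without WT replicate 1 (0.190) or sgKDM5C replicate 2 (0.276). In sgKMT2B cells it was 0.80 ± 0.33 (edgeR adjusted p = 0.0850), and among the alternatives it was called without WT replicate 2 (0.0378) and with the filter off (0.0195). COL9A3 overlaps TCFL5, which lies on the opposite strand and had 12730 counts over the 8 libraries against 916 for COL9A3, so reads at the overlap may come from TCFL5.

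COL9A2 had 6.26 and 6.89 CPM in sgKDM5C cells, 3.25 and 2.57 CPM in sgKDM6A cells and 5.14 and 5.12 CPM in sgKMT2B cells, against 2.35 and 1.95 CPM in WT cells. It rose in sgKDM5C cells (log2 change 1.60 ± 0.25, edgeR adjusted p = 0.000785) and in sgKMT2B cells (1.24 ± 0.25, edgeR adjusted p = 0.00251) and was not called in sgKDM6A cells (0.42 ± 0.25, edgeR adjusted p = 0.241). COL9A1 was at 1 count in sgKDM5C, 1 in sgKDM6A and 7 in sgKMT2B cells, against 0 in WT cells, and was not tested. COL14A1, which encodes a FACIT collagen of tendon and skin fibrils and was the most abundant FACIT transcript by CPM here, had 30.3 and 30.9 CPM in sgKDM6A cells, against 54.4 and 59.9 CPM in WT cells (log2 change -0.90 ± 0.12, edgeR adjusted p = 0.000160). In sgKDM5C and sgKMT2B cells COL14A1 lay between 56.9 and 68.8 CPM and was not called. The other tested FACIT genes, COL12A1, COL16A1, COL19A1 and COL21A1, were between 0.151 and 2.57 CPM in every library and were not called against WT. COL16A1 had 1.33 and 1.38 CPM in sgKMT2B cells, against 0.537 and 0.650 CPM in WT cells (edgeR adjusted p = 0.0948), and was called only after thinning to the smallest library (0.0397).

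COL18A1 encodes a proteoglycan collagen of basement membranes whose end is released as endostatin. It had 73.3 and 86.5 CPM in sgKDM6A cells and 122.0 and 128.0 CPM in sgKMT2B cells, against 174.6 and 156.0 CPM in WT cells. Neither knockout overlapped WT, with log2 changes of -1.05 ± 0.11 in sgKDM6A (edgeR adjusted p = 2.03e-05) and -0.40 ± 0.10 in sgKMT2B cells (edgeR adjusted p = 0.0114). The second call was lost without WT replicate 1 (0.0566) or sgKMT2B replicate 1 (0.11). In sgKDM5C cells it had 153.7 and 162.8 CPM and was not called. COL18A1 overlaps SLC19A1 on the opposite strand, with 21124 counts over the libraries against its own 25703. COL15A1, the related gene, was between 0.0402 and 0.785 CPM and was not called.

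COL13A1 encodes a collagen that spans the cell membrane and is found at neuromuscular junctions. It had 4.12 and 4.84 CPM in sgKDM5C cells, 7.81 and 8.43 CPM in sgKDM6A cells and 4.46 and 4.53 CPM in sgKMT2B cells, against 9.96 and 11.1 CPM in WT cells. All knockout libraries lay below both WT libraries, and the fall was called in sgKDM5C (log2 change -1.23 ± 0.20, edgeR adjusted p = 0.000954) and sgKMT2B cells (-1.22 ± 0.20, edgeR adjusted p = 0.000549) but not in sgKDM6A cells (-0.37 ± 0.19, edgeR adjusted p = 0.166). COL23A1 and COL25A1, 2 further transmembrane collagens, lay between 8.30 and 16.7 CPM in every library and were not called. COL26A1 encodes a secreted collagen first found in testis and ovary of mice. It had 22.1 and 23.8 CPM in sgKDM6A cells and 21.1 and 26.9 CPM in sgKMT2B cells, against 34.5 and 34.2 CPM in WT cells, with log2 changes of -0.58 ± 0.14 (edgeR adjusted p = 0.00735) and -0.52 ± 0.14 (edgeR adjusted p = 0.0133). Without replicate 1 of the knockout, these calls were lost in sgKDM6A (0.0679) and in sgKMT2B cells (0.187). COL26A1 was not called in sgKDM5C cells, at 31.6 and 32.8 CPM.

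Of the other tested genes, COL7A1, which encodes the anchoring fibrils below the epidermis, was between 0.650 and 2.36 CPM, with the widest gap between its WT libraries, and was not called. COL8A2, a network collagen of the cornea, had 7 counts in sgKDM5C, 0 in sgKDM6A and 21 in sgKMT2B cells, against 4 in WT cells, and was not called against WT. The 13 genes left out by the filter had at most 36 counts each over the 8 libraries. Besides those named above they were COL20A1 and COL22A1 among the FACITs, COL8A1 and COL10A1 among the network collagens, COL17A1, the hemidesmosome collagen, and COL28A1. COL17A1 had 25 counts in sgKMT2B cells, against 3 in WT cells, a ratio of 6.56 (95% interval 2.00 to 34.0, counting error only). COL22A1 had 0 counts in all libraries, which allows no more than 0.107 to 0.195 CPM in a library.

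The knockouts were also compared with each other, without the WT libraries in the contrast. In sgKDM5C against sgKDM6A cells 12 of the 31 collagen genes were called, 11 higher and 1 lower in sgKDM5C, where 19.8% of all genes tested were called, 10.9% higher and 8.86% lower. Those higher included COL3A1 (log2 difference 3.91 ± 0.46, edgeR adjusted p = 5.99e-05), COL9A3 (3.95 ± 0.40, edgeR adjusted p = 1.71e-05), COL5A1 (1.59 ± 0.13, edgeR adjusted p = 1.97e-06) and COL6A2 (1.43 ± 0.09, edgeR adjusted p = 3.53e-07), and the one that was lower was COL13A1 (-0.86 ± 0.19, edgeR adjusted p = 0.00718, and 0.0616 without sgKDM5C replicate 1). In sgKDM6A against sgKMT2B cells 19 were called, 5 higher and 14 lower in sgKDM6A, where 24.9% of all genes were called, 12.4% higher and 12.5% lower. COL3A1 differed there by -8.77 ± 0.34 (edgeR adjusted p = 1.27e-09), COL5A1 by -1.84 ± 0.13 (edgeR adjusted p = 3.31e-07) and COL5A2 by -2.45 ± 0.27 (edgeR adjusted p = 1.91e-05). The 5 genes higher in sgKDM6A were COL4A1, COL4A2, COL4A3, COL4A4 and COL13A1. In sgKDM5C against sgKMT2B cells 11 were called, 6 higher and 5 lower in sgKDM5C, where 22.1% of all genes were called, 11.6% higher and 10.5% lower. This count was 6 without sgKDM5C replicate 1 and 7 without sgKDM5C replicate 2, sgKMT2B replicate 1 or sgKMT2B replicate 2. COL4A1 and COL4A2 were higher in sgKDM5C than in sgKMT2B cells by 0.87 ± 0.17 (edgeR adjusted p = 0.00231) and 0.60 ± 0.12 (edgeR adjusted p = 0.00267). COL4A3 and COL4A4 had 146 and 310 counts in sgKDM5C cells, against 2 each in sgKMT2B cells, ratios of 68.1 (95% interval 18.5 to 568) and 144.6 (39.7 to 1199).

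Each collagen gene was also set beside the other tested genes within 10 Mb on its chromosome. Around COL5A1 and COL27A1 on chromosome 9, genes in sgKDM6A cells had median log2 changes of 0.32 and 0.46, so both collagens fell where the genes within 10 Mb were higher. Within 500 kb, all 3 neighbours of COL5A1 were called higher (median 0.76). Of the 6 neighbours of COL27A1 within 500 kb, 2 were higher and 1 was lower (median 0.02). Around COL3A1 and COL5A2 the median was 0.27 in sgKMT2B cells, against changes of 4.87 and 2.73 of the genes themselves. Within 500 kb COL3A1 had 1 tested neighbour outside the family, not called, and COL5A2 had 4, of which 1 was called higher. Around COL4A3 and COL4A4 the median was 0.02 in sgKMT2B cells, and 0 of the 6 tested neighbours of COL4A3 within 500 kb were called. Around COL4A1 it was -0.12 in sgKMT2B cells, while the median over chromosome 13 was -0.41. Of the 5 neighbours of COL4A1 within 500 kb, 1 was called higher and 1 lower there, with a median of -0.329. Of the 7 neighbours of COL4A2 within 500 kb, 1 was called, higher, also with a median of -0.329. COL6A1, COL6A2 and COL18A1 all lie on chromosome 21, where the median in sgKDM6A cells was -0.17, and within 500 kb of COL6A2 4 of 16 neighbours were called, all lower, with a median of -0.42. Near COL13A1 the median was -0.34 in sgKMT2B cells, and 5 of the 12 neighbours within 500 kb were called, all lower, with a median of -0.68, against -1.22 for COL13A1. In sgKDM5C cells the median around COL13A1 was 0.04, with the gene itself at -1.23. Within 500 kb of COL1A1, 8 of 23 neighbours were called in sgKDM6A cells, all lower, with a median of -0.455. In sgKDM5C cells 5 were called, all lower (median -0.142), and in sgKMT2B cells 3 were higher and 3 lower (median 0.001). Of all genes tested, 14.6%, 11.5% and 14.5% were called lower in these comparisons. Within 500 kb of COL9A3, 9 of 23 neighbours were higher and 1 was lower in sgKMT2B cells (median 0.486), where 13.7% of all genes were called higher. The part of these regional shifts in the collagen results was not tested.

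**Figure D4:**
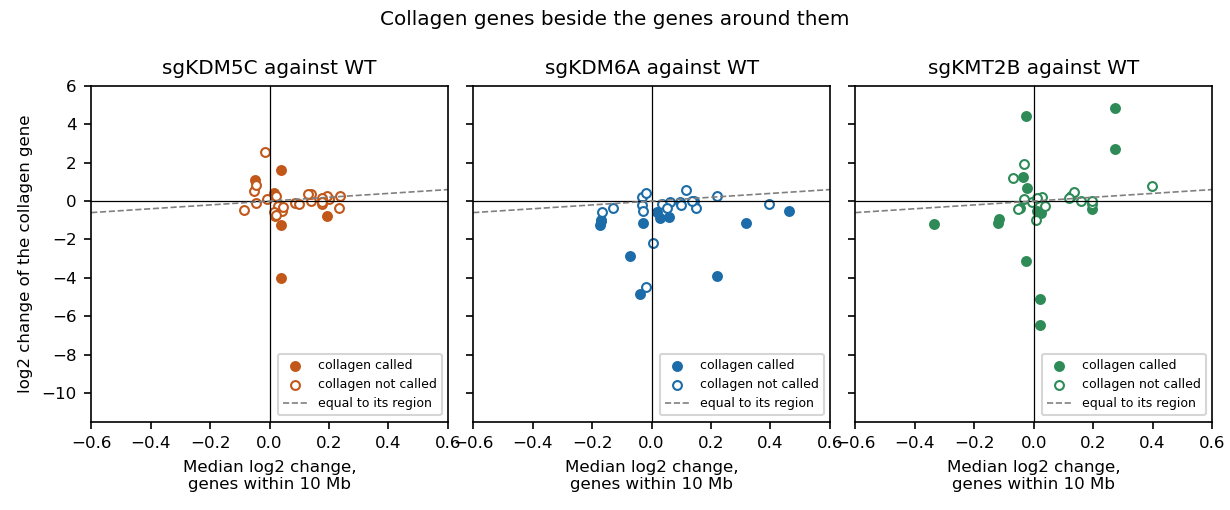
Log2 change of each tested collagen gene (y axis) against the median log2 change of the other tested genes within 10 Mb (x axis) in each knockout against WT, with called genes filled and a dashed line where both are equal. Regional medians stay between -0.34 and 0.46, while called collagen genes range from -6.49 to 4.87.

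The genes that modify, export, trim, cross-link, bind or degrade collagen were examined as a list of 70, of which 60 were tested. In sgKDM5C cells 4 rose and 12 fell, in sgKDM6A cells 4 rose and 21 fell, and in sgKMT2B cells 7 rose and 17 fell, beside the same backgrounds of 22.6%, 27.2% and 28.1% of all genes called. The list's median log2 change was -0.17 in sgKDM5C, -0.26 in sgKDM6A and -0.06 in sgKMT2B cells. Of the 9 prolyl hydroxylation genes, 0 were called in sgKDM5C cells by edgeR or DESeq2 and 0 had an unadjusted p under 0.05, 2 fell in sgKDM6A cells, and 1 rose and 1 fell in sgKMT2B cells. These calls, of P3H1 and CRTAP in sgKDM6A and of P3H4 and P4HA1 in sgKMT2B cells, were each lost in at least 1 alternative fit. COLGALT1, which adds galactose to hydroxylysine, fell in sgKDM5C cells by 0.63 ± 0.09 (edgeR adjusted p = 0.000314), and the lysyl hydroxylase PLOD2 fell in sgKDM6A cells by 0.61 ± 0.13 (edgeR adjusted p = 0.00375). Of the 6 chaperone and folding genes, 1 rose and 2 fell in sgKDM5C cells, 1 rose and 2 fell in sgKDM6A cells, and 1 fell in sgKMT2B cells. Both rises, of SERPINH1 in sgKDM5C and TMEM38B in sgKDM6A cells, were lost in at least 1 alternative fit. So were the falls of FKBP14 in sgKDM5C and sgKMT2B cells. FKBP10, a prolyl isomerase for procollagen, fell in sgKDM5C (-0.64 ± 0.09, edgeR adjusted p = 0.000588) and sgKDM6A cells (-0.48 ± 0.09, edgeR adjusted p = 0.00240) but was not called in sgKMT2B cells (0.14 ± 0.09, edgeR adjusted p = 0.300). CREB3L1, a membrane-bound transcription factor that activates type I collagen genes in bone, had 6.54 and 7.08 CPM in sgKDM6A cells, against 17.6 and 19.9 CPM in WT cells (log2 change -1.46 ± 0.19, edgeR adjusted p = 0.000116). SEC24D, a coat protein of the vesicles that export procollagen, was called lower in every knockout. It had 33.3 and 35.7 CPM in sgKMT2B, 37.0 and 31.5 CPM in sgKDM6A and 38.28 and 43.55 CPM in sgKDM5C cells, against 56.1 and 72.7 CPM in WT cells. The edgeR adjusted p-values in that order were 0.000511, 0.000542 and 0.00579. The call in sgKDM5C cells was lost without sgKDM5C replicate 1.

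All 5 lysyl oxidase genes, which cross-link collagen, were called in sgKDM6A cells (1 higher, 4 lower) and in sgKMT2B cells (1 higher, 4 lower), and 2 were called in sgKDM5C cells (1 higher, 1 lower). Of all genes tested, 27.2%, 28.1% and 22.6% were called in these 3 comparisons, and 14.6%, 14.5% and 11.5% were called lower. LOX had 2.21 and 1.89 CPM in sgKMT2B cells, against 10.8 and 8.97 CPM in WT cells (log2 change -2.27 ± 0.21, edgeR adjusted p = 6.79e-06). In sgKDM6A cells it had 14.2 and 16.2 CPM and was the one that rose. LOXL1 had 27.7 and 24.8 CPM in sgKDM5C, 9.87 and 8.68 CPM in sgKDM6A and 25.8 and 26.9 CPM in sgKMT2B cells, against 14.4 and 16.2 CPM in WT cells. It was called in all of these comparisons (edgeR adjusted p = 0.00235, 0.00342 and 0.00143), lower in sgKDM6A and higher in the others. LOXL2 had 15.1 and 15.1 CPM in sgKDM6A cells, against 43.0 and 34.5 CPM in WT cells (log2 change -1.36 ± 0.14, edgeR adjusted p = 3.06e-05), and LOXL4 had 3.37 and 4.11 CPM there, against 10.1 and 11.4 CPM in WT cells (-1.51 ± 0.20, edgeR adjusted p = 0.000142). The calls of LOXL2 and LOXL4 in sgKMT2B cells were lost without sgKMT2B replicate 1 (0.0649 and 0.0530), and that of LOXL2 in sgKDM5C cells without WT replicate 1 (0.156) or sgKDM5C replicate 1 (0.155).

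SPARC, a matrix protein that binds collagen and helps its processing, had 4.08 and 4.09 CPM in sgKDM5C, 0.0793 and 0.0357 CPM in sgKDM6A and 91.5 and 102.2 CPM in sgKMT2B cells, against 28.3 and 37.2 CPM in WT cells. No group overlapped another. SPARC was lowest in sgKDM6A and highest in sgKMT2B cells, as COL3A1 was. In sgKDM5C cells the 2 genes differed, with SPARC below WT and COL3A1 overlapping WT. In sgKDM6A cells 3 counts remained, against 1258 in WT cells, a WT to sgKDM6A ratio of 563.5 (95% interval 192.4 to 2736, counting error only). The log2 change of SPARC was 1.57 ± 0.14 in sgKMT2B (edgeR adjusted p = 6.79e-06), and SPARC was 7.98-fold lower in sgKDM5C cells (edgeR adjusted p = 4.76e-07). LUM, which encodes lumican, a small proteoglycan that spaces fibrils, had 84 counts in sgKMT2B cells and 0 in sgKDM6A cells, against 9 in WT cells. With sgKDM6A set at the floor of 3 counts, LUM was 4.03-fold lower there, a value that takes the 9 WT counts as exact. Its call in sgKMT2B cells (log2 change 2.84 ± 0.65, edgeR adjusted p = 0.00627) was lost without WT replicate 1 (0.0524) or sgKMT2B replicate 2 (0.102). The call in sgKDM6A cells (edgeR adjusted p = 0.0166) was lost without WT replicate 2 (0.0527), sgKDM6A replicate 1 (0.0765) or sgKDM6A replicate 2 (0.0725). SPARC and LUM are also abundant in fibroblasts. The 11 fibroblast and stromal markers, 3 of which (FN1, LUM and DCN) are also in the list of 70, summed to 38.7 and 47.7 CPM in sgKDM6A and 59.6 and 67.9 CPM in sgKMT2B cells, against 78.0 and 88.4 CPM in WT cells. In that list 4 fell and 0 rose in sgKDM6A cells, and 2 fell and 2 rose in sgKMT2B cells, with DPT and FAP at 0 throughout. FN1 alone had 66.3 and 77.7 CPM in WT cells. Without FN1, a sum taken after its values were seen, the other 10 markers came to 6.90 and 6.68 CPM in sgKDM6A and 21.0 and 21.6 CPM in sgKMT2B cells, against 11.7 and 10.7 CPM in WT cells. ACTA2, a marker of smooth muscle and activated fibroblasts, had 14.7 and 14.6 CPM in sgKMT2B cells, against 6.61 and 5.33 CPM in WT cells. The sum of all 11 markers was thus below WT in both sgKDM6A and sgKMT2B cells. Only the sum left after dropping FN1 was higher in sgKMT2B cells, where FN1 itself was called lower (edgeR adjusted p = 0.00164). ACTA2 made up most of the sum without FN1 in sgKMT2B cells, and LUM is part of it. The sum without FN1 was also higher in sgKDM5C cells, at 16.4 and 16.1 CPM, where COL3A1 was not called. Single markers differed, as PDGFRA was called lower in sgKMT2B cells (edgeR adjusted p = 0.0164) and TAGLN was not called in any knockout. The part of these markers in the COL3A1, SPARC and LUM results was not tested.

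Among receptors and degrading enzymes, DDR2, a receptor tyrosine kinase activated by fibrillar collagen, had 23.8 and 26.0 CPM in sgKDM6A and 48.9 and 47.7 CPM in sgKMT2B cells, against 69.8 and 71.1 CPM in WT cells. It fell in both (log2 change -1.50 ± 0.11, edgeR adjusted p = 8.35e-07, and -0.54 ± 0.10, edgeR adjusted p = 0.00166). In sgKDM5C cells DDR2 had 86.9 and 89.1 CPM and was called higher (log2 change 0.32, edgeR adjusted p = 0.0363). That call was lost without the filter (0.0700) and when any 1 of the 8 libraries was left out. MRC2, an endocytic receptor that takes up collagen, fell by 1.15 ± 0.12 in sgKDM6A cells (edgeR adjusted p = 2.87e-05) and by 1.02 ± 0.12 in sgKMT2B cells (edgeR adjusted p = 5.70e-05). MRC2 was also called lower in sgKDM5C cells (log2 change -0.49, edgeR adjusted p = 0.01025), a call lost without WT replicate 2 or sgKDM5C replicate 1. ITGA2, the integrin chain that binds type I collagen, rose by 1.05 ± 0.18 in sgKDM5C cells (edgeR adjusted p = 0.00161) and by 1.01 ± 0.18 in sgKDM6A cells (edgeR adjusted p = 0.00140). ITGA2 was also called higher in sgKMT2B cells, by 0.64 (edgeR adjusted p = 0.0200). That call was lost after thinning to the smallest library (0.0759) and without WT replicate 1 or either sgKMT2B replicate. MMP2, a gelatinase that cuts type IV collagen and denatured fibrils, had 6.07 and 8.50 CPM in sgKDM6A cells, against 29.2 and 30.0 CPM in WT cells (log2 change -2.02 ± 0.17, edgeR adjusted p = 5.70e-06). In sgKMT2B cells it had 16.95 and 20.77 CPM (log2 change -0.65, edgeR adjusted p = 0.00955), a call lost without sgKMT2B replicate 1. The interstitial collagenases MMP1, MMP8 and MMP13 did not pass the filter on low counts. MMP14, also in the degradation list, had 1.13 and 1.51 CPM in sgKDM5C and 1.98 and 1.75 CPM in sgKDM6A cells. It had 1.12 and 1.54 CPM in sgKMT2B cells, against 2.64 and 4.16 CPM in WT cells. MMP14 was called lower in sgKDM5C (log2 change -1.35, edgeR adjusted p = 0.0152) and sgKMT2B cells (-1.33, edgeR adjusted p = 0.0130). Both calls were lost without WT replicate 2 (-1.01 and -0.99) or without replicate 1 of the knockout. Among transcription regulators, SOX9, which activates COL2A1 in cartilage, had 8.12 and 10.1 CPM in sgKDM5C, 8.21 and 12.6 CPM in sgKDM6A and 11.8 and 13.6 CPM in sgKMT2B cells, against 17.4 and 15.1 CPM in WT cells. It was called lower in sgKDM5C cells (edgeR adjusted p = 0.0115), a call lost without WT replicate 1 (0.0584) or sgKDM5C replicate 1 (0.0969). In sgKDM6A cells its call (edgeR adjusted p = 0.0338) was lost without WT replicate 1 (0.146), WT replicate 2 (0.0570) or sgKDM6A replicate 1 (0.295), or in a fit of sgKDM6A and WT alone (0.0503), and it was not called in sgKMT2B cells (0.213).

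**Figure D5:**
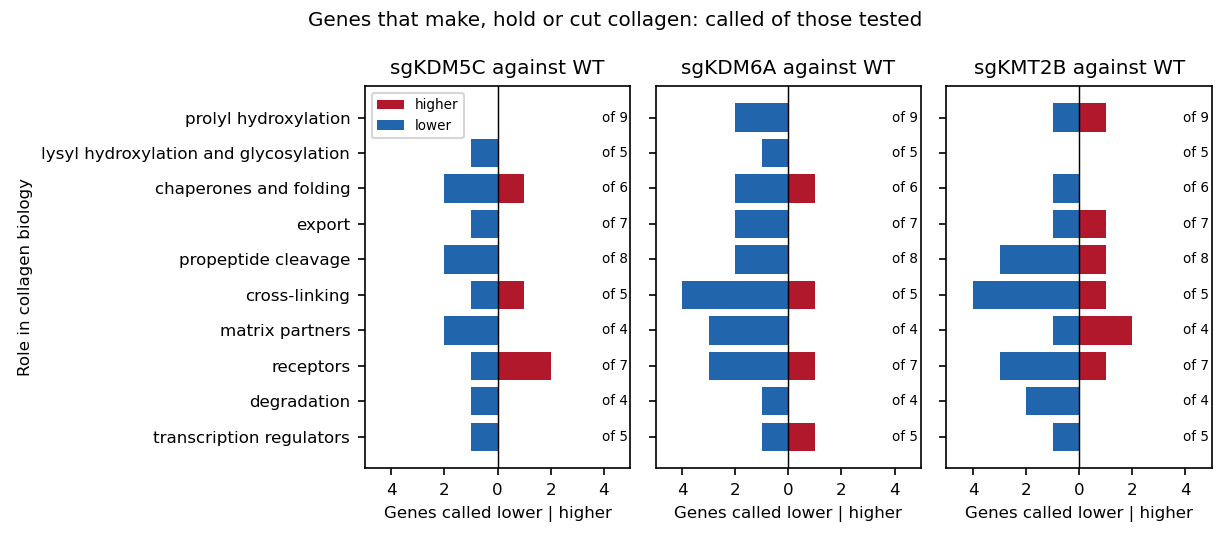
Number of genes called lower (bars to the left) and higher (bars to the right) among the tested genes of each role in collagen biology, for each knockout against WT, with the number tested at the right edge. In sgKDM6A and sgKMT2B cells all 5 cross-linking genes were called, 4 lower and 1 higher in each, while at most 2 of the 9 prolyl hydroxylation genes were called in a knockout.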

How the data were processed

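The authors deposited raw counts, 1 whole number per gene and library. Per the submitters' processing notes, the tools were STAR, with no version given there, and HTSeq 0.11.2, and the build was GRCh38. Which annotation release was counted, and whether strand was used, is not stated in the sources used here. Genes were located with GENCODE v29. Counts were tested with edgeR 4.0.16 (limma 3.58.1, R 4.3.3), using TMM factors, filterByExpr by group (17527 genes left), and glmQLFit and glmQLFTest with 1 coefficient per group over all 8 libraries, 4 residual degrees of freedom and Benjamini-Hochberg adjustment within each of 6 comparisons. Levels are TMM-scaled CPM, and FPKM use union exon length. Within every group the replicate libraries differed beyond sampling noise (chi-square per degree of freedom 7.57 to 15.3). Intervals and floors cover counting error only, since reads carry no molecular identifiers.

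The collagen genes, the list of 70 pathway genes and the marker lists were chosen with earlier results of these data known. Collagen genes called against WT with at least 1 CPM in the highest group are given per library, and pathway genes named are among the 4 with the smallest adjusted p of their role in a comparison. The fit was also run on simulated counts with the same fixed spread for every gene and changes placed only in well-counted genes. That run does not cover genes at low counts or the spread seen between these replicates. Alternatives were other normalizations, DESeq2 1.42.0, other filters, thinning, only the compared groups, a replicate block and leaving out each library.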

Additional observations from a re-analysis of the deposited data

How the results depend on the processing

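Of the 34 calls of collagen genes against WT, 27 held in each of the 16 alternatives that tested them and 7 were lost in at least 1, and of the 42 between knockouts 29 held and 13 were lost in at least 1. No call changed direction. The number of collagen genes called stayed within 1.5 times in all comparisons but 1. In sgKDM5C against sgKMT2B it was 11, and 6 to 11 when 1 library was left out (6 without sgKDM5C replicate 1, 7 without sgKDM5C replicate 2 or either sgKMT2B replicate). The same ranges were 6 to 8 for sgKDM5C, 10 to 12 for sgKDM6A and 12 to 15 for sgKMT2B against WT, 9 to 12 for sgKDM5C against sgKDM6A and 15 to 19 for sgKDM6A against sgKMT2B, where leaving out a library assumes that the lone one left varies like the other groups. The deviations of libraries with the same replicate number correlated by -0.0179 to 0.007 in the comparisons with WT and by 0.0826 to 0.182 between knockouts, and as no label ties the numbers to a shared batch, they were not taken as pairs. With a replicate block, 9, 12 and 16 genes were called in sgKDM5C, sgKDM6A and sgKMT2B against WT, and 13, 11 and 18 in sgKDM5C against sgKDM6A, sgKDM5C against sgKMT2B and sgKDM6A against sgKMT2B. That block also gave calls for COL27A1 (adjusted p = 0.0123) and COL4A2 (0.0493) in sgKDM5C and COL9A3 (0.0425) in sgKMT2B against WT. Without the filter, 10 were called in sgKDM5C. Genes under about 10 counts in a group, such as COL2A1 in sgKDM6A cells or COL6A3 in WT cells, have changes whose size the depth does not fix.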
